A study of Mus musculus with 39 samples.

Results

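The results concern the 4 muscle libraries whose sample titles carry replicate number 1, one from each combination of genotype and diet, set against the 16 muscle libraries numbered 2 to 5. These 20 libraries are all the muscle libraries of a set of 39, of which 19 are from liver. The number 1 libraries were singled out because Fos and Egr1 were low in them. Gene differences between number 1 and the other muscles are therefore given as a description. The call used on them, an adjusted p below 0.05, only serves to name genes. Tests are kept for the liver libraries, for the 16 muscles numbered 2 to 5 and for muscle total counts, measures that did not enter that choice. Genotype and diet themselves were tested in all 20 muscles. The way the number 1 difference varied with diet and genotype was also tested, but it uses the same number 1 values. The labels do not say what the replicate number stands for, on which day or in which order animals were dissected, or which library ran on which of the lanes.

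Muscle was the triceps surae, the calf muscle group, of female mice aged 25 weeks from a mixed C57BL/6 and 129 background, taken after a fast of 4 h and frozen in liquid nitrogen. Every mouse was Ins1-/-, that is, homozygous for loss of Ins1 in the whole body, and the groups differed in the remaining insulin gene, Ins2+/+ or Ins2+/-. Diet A held 4.68 kcal per g with 25% of calories from fat, and diet B held 5.56 kcal per g with 58% from fat. Each of the 4 muscle groups had 5 libraries, named here by genotype, diet and number, so that Ins2+/- B 2 is the Ins2+/- muscle on diet B with number 2. Whether a muscle and a liver with the same label came from 1 mouse is not stated.

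Immediate early genes are transcribed within minutes of a growth, stretch, nerve or stress signal from promoters that need no new protein, and their transcripts are short-lived. Fos and Egr1 encode transcription factors of this class: FOS pairs with JUN family proteins to form AP-1, and EGR1 is a zinc finger protein that binds GC-rich sites. Btg2 encodes an antiproliferative protein that recruits the machinery that removes poly(A) tails, and Jun encodes the main partner of FOS. In skeletal muscle such genes are known to respond to contraction and to injury.

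To show what the promoters of the genes with the lowest number 1 values hold, the 250 bases before the RefSeq start (build GRCm38.p6) were searched on both strands. The motifs were the cAMP response element TGACGTCA and its core TGACG, the EGR site GCGNGGGCG, the AP-1 site TGANTCA, the CArG box bound by serum response factor, and the clock motifs CACGTG (E-box) and TTATGNAA (D-box). These motifs and the genes searched were chosen after the values were seen. Of 32841 promoters, 1.55% held the full cAMP response element, 17.8% its core, 4.7% the EGR site, 6.75% the AP-1 site, 1.47% the CArG box, 6.02% the E-box and 3.07% the D-box. Of 16 genes looked up, 15 had a promoter in this set, and Egr1 did not. A match describes letters and says nothing of whether a factor was bound. Sites outside these 250 bases were not searched, so a missing match does not show that a gene lacks the site. Fos had 2 cores, which start 129 and 66 bases before the transcription start and are in capitals. Fosb had 1 EGR match 50 bases before its start, and Btg2 a full cAMP response element at 166 bases and an EGR match at 131 bases, in capitals; the cores of these 2 genes, at 60 bases in Fosb and overlapping the full element in Btg2, are left in lower case.
Fos, chr12:85473640-85473889, plus strand: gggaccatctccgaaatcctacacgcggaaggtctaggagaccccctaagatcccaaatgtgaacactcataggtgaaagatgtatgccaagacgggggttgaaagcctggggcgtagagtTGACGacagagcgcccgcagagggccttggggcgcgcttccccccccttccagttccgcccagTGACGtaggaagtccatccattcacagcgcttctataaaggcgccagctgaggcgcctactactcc
Fosb, chr7:19310046-19310295, minus strand: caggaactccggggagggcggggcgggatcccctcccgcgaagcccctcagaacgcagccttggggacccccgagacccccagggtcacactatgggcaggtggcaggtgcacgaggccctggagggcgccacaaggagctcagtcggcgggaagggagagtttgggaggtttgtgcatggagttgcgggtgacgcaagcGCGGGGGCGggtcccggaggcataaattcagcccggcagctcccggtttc
Btg2, chr1:134079156-134079405, minus strand: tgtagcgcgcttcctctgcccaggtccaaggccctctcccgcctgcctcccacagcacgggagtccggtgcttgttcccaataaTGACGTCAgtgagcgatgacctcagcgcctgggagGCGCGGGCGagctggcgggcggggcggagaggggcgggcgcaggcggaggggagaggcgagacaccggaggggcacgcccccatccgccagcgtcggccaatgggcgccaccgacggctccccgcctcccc
Among the clock genes that stood higher in number 1, Per3 had 2 D-box matches, at 205 and 158 bases, and an EGR match on the other strand at 226 bases, while the promoter shown for Tef had an E-box at 138 bases. Capitals again mark the matches.
Per3, chr4:151044666-151044915, minus strand: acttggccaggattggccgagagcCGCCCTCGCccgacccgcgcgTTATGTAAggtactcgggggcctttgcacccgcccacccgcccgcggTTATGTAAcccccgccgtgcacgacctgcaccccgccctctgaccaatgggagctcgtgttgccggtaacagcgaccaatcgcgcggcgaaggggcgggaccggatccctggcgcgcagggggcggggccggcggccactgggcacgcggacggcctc
Tef, chr15:81811164-81811413, plus strand: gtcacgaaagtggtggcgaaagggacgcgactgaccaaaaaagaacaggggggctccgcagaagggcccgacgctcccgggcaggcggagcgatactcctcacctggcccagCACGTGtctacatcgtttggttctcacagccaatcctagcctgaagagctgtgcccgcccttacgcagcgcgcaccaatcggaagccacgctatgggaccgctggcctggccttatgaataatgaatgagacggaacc
The windows searched for Jun, Dbp, Mylk4, Pik3ip1 and Arntl held none of these letters, and those of Junb and Ccn1 held only the core. Fkbp5 and Otud1 each had 1 E-box, at 169 and 54 bases, Otud1 also had 1 core at 50 bases, and Socs3 an EGR match at 181 bases.

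Total counts of the number 1 muscles ran from 5399423 to 11869072 and those of the others from 1060469 to 13709576. On the log2 scale number 1 was 0.93 higher than the rest of its group on average, which was within the spread (exact permutation of numbers within groups, 625 arrangements, two-sided p = 0.109), although it reached 1.08 with p = 0.04 without Ins2+/- A 2. Thinned to 1000000 counts each, number 1 libraries showed 12836 to 13075 genes and the others 9685 to 13632. Mitochondrially encoded genes took 17.1% to 18% of counts in number 1 and 13.7% to 49.7% in the others, with the highest share in Ins2+/- B 2. Pancreatic islet transcripts (Iapp, Gcg, Sst and Ppy together) were at 0.31 to 1.11 CPM, counts per 1000000, in number 1, and reached 5 CPM or more in 9 muscles, all numbered 2 to 5. Skeletal muscle markers were present in every library, for example Acta1, skeletal alpha-actin, at 23531 to 25727 normalised CPM in number 1 and 10402 to 29874 in the others.

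**Figure D1:**
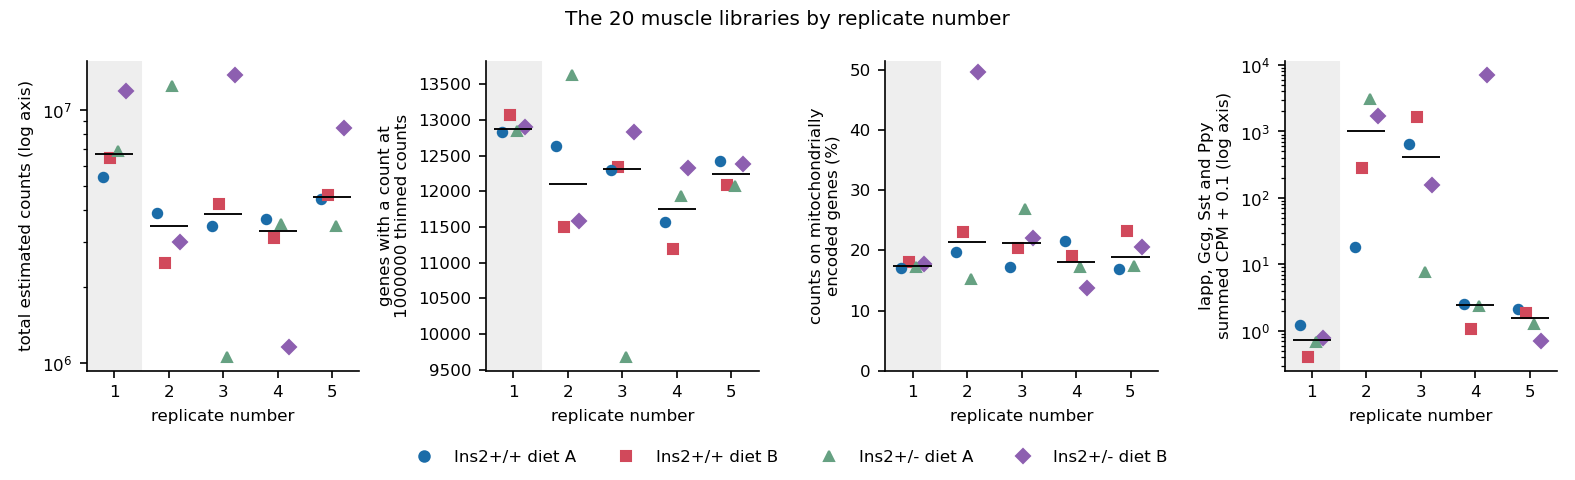
Total estimated counts, genes detected after thinning, share of counts on mitochondrially encoded genes, and summed islet hormone transcripts (CPM plus 0.1) of the 20 muscle libraries by replicate number. Each point is 1 library, shape and colour give the group, and black lines are medians per number; the 4 number 1 libraries (grey band) lie close together in the last 3 panels and are all under 5 CPM for islet transcripts.

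Fos (chromosome 12, 85473890 to 85477273) had normalised levels of 2.24, 2.91, 3.11 and 5.5 CPM in the number 1 muscles of Ins2+/+ A, Ins2+/+ B, Ins2+/- A and Ins2+/- B. The 16 others ran from 2.82 to 612 CPM with a median of 161. All 4 number 1 muscles were low, and of the others only Ins2+/- B 2 was as low, at 2.82 CPM. That library also had the largest mitochondrial share of counts. The next lowest was Ins2+/- A 2 at 14.2 CPM, so the groups overlapped through 1 library. The log2 ratio of number 1 to the others, adjusted for group, was −5.48 ± 0.86 (SE, as throughout).

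Egr1 was at 2.07, 3.35, 5.38 and 5.34 CPM in the number 1 muscles, in the same order, and at 13.7 to 273 CPM (median 102) in the others. No other muscle came down to the number 1 range, so Egr1 was the only one of these 4 markers without overlap. Of all genes tested, 5 (0.0418%) lay without overlap in that direction, Egr1, Fkbp5, Otud1, Rpl41 and Socs3. Its log2 ratio was −4.35 ± 0.63. Btg2 (chromosome 1, 134075170 to 134079120) was at 18.9, 21.7, 16.6 and 27.0 CPM against 23.5 to 411 CPM (median 111). Again the number 1 muscles were low and only Ins2+/- B 2, at 23.5 CPM, lay within their range, with a log2 ratio of −2.65 ± 0.47. Jun (chromosome 4, 95049034 to 95052222) differed less. It stood at 57.2, 58.0, 49.5 and 76.4 CPM in number 1 and 55.5 to 500 CPM (median 125) in the others, where 2 libraries lay within the number 1 range. Its log2 ratio was −1.26 ± 0.36, and it did not pass the call used here.

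**Figure D2:**
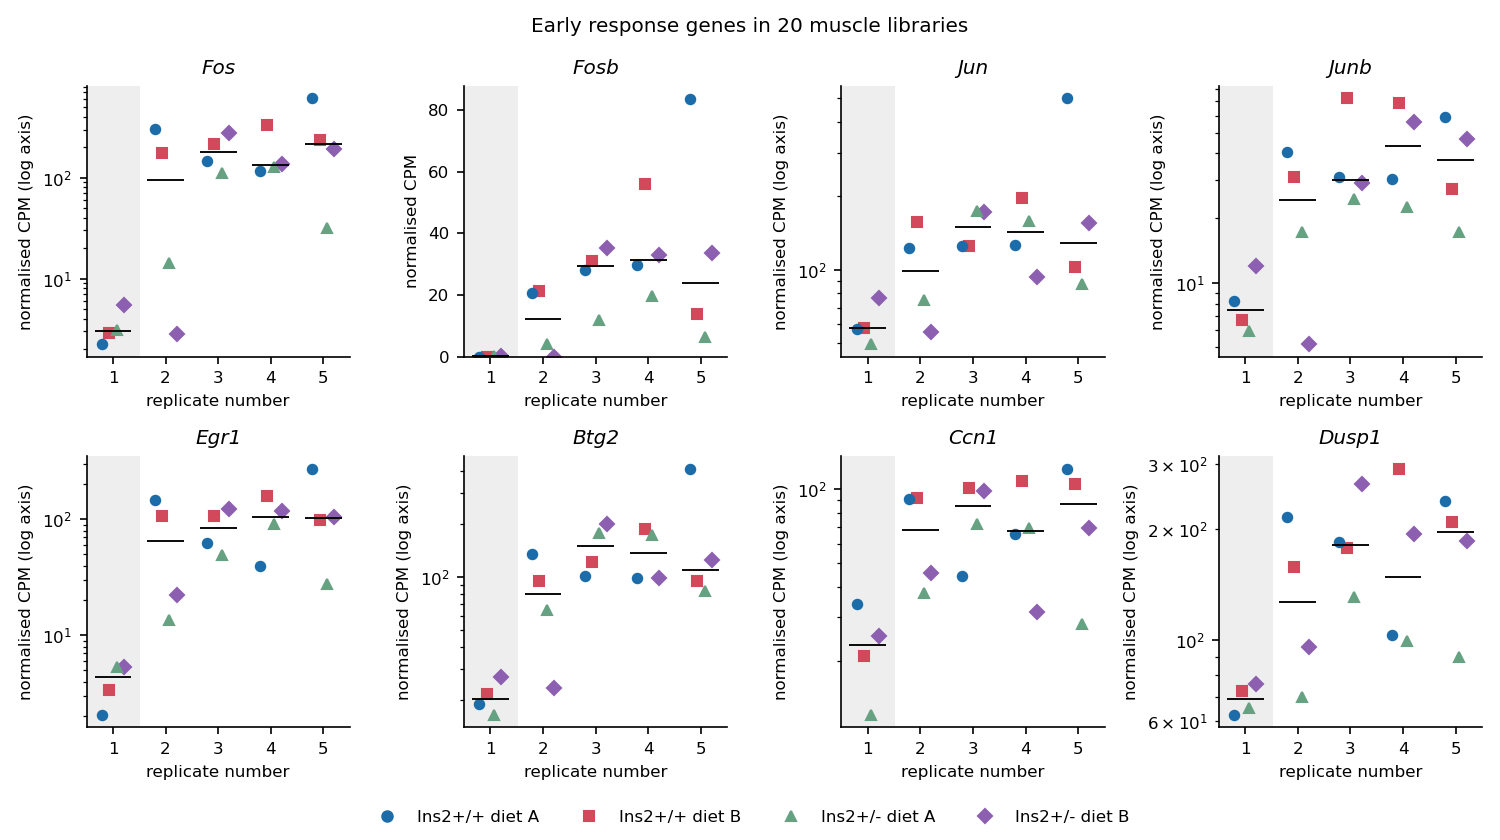
Normalised CPM of 8 early response genes in the 20 muscle libraries by replicate number, on log axes except for Fosb. Each point is 1 library, black lines are medians per number, and the grey band marks number 1. Egr1 of number 1 lies at 2.07 to 5.38 CPM, below every other library, and in the panels of Fos, Fosb, Junb and Btg2 only Ins2+/- B 2 among the other muscles comes as low.

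Among the remaining AP-1 subunits, Fosb stood farthest apart. Its estimated counts in number 1 were 0, 0, 1 and 3, in the same order of groups, while the other muscles held up to 469 counts and Ins2+/- B 2 had 0. In normalised terms the others ran from 0 to 83.7 CPM with a median of 24.8. The fitted log2 ratio of −7.50 ± 1.03 rests on those few counts and depends on how the fit treats zeros. Junb, a JUN family member that can restrain AP-1, was at 8.27, 6.70, 5.95 and 12 CPM in number 1 and 5.17 to 72.2 CPM (median 30.7) in the others, a log2 ratio of −2.05 ± 0.41. Only Ins2+/- B 2 lay as low. Atf3, a stress-induced factor that dimerises with JUN proteins, was at 9.06 to 12.4 CPM in number 1 against a median of 44.2 CPM (0 to 412) in the others, with a log2 ratio of −2.47 ± 0.76. Jund, which is made more steadily, was nearer to the others at −0.62 ± 0.29, and Fosl2 at −0.36 ± 0.36 lay within its error of 0. All 8 AP-1 genes tested had estimates below 0, with a median of −1.66, where 45.63% of all 11959 genes had estimates below 0 and their median was 0.03.

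All 7 tested EGR and NR4A genes had estimates below 0, with a median of −0.58. Egr2, a relative of Egr1, was at 0.425 to 1.46 CPM in number 1 and 0 to 17.7 CPM (median 6.3) in the others, a log2 ratio of −2.45 ± 0.92. The orphan nuclear receptor genes Nr4a1, Nr4a2 and Nr4a3, which exercise is known to induce in muscle, had estimates of −0.44 ± 0.39, −0.66 ± 0.68 and −0.53 ± 0.57. Nr4a1 for example was at 181 to 209 CPM in number 1, and 5 of the 16 others lay at or below that. In the 11 muscles with under 5 CPM of islet transcripts Nr4a1 stood at −0.91 ± 0.17, and it was called lower there. That set leaves out Ins2+/- B 2 and Ins2+/- A 2, the other muscles lowest in Fos. Nothing is read from this call, since number 1 was chosen on these data.

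Of 31 other early response genes tested, 23 had estimates below 0 and 8 above, with a median of −0.52. Ccn1, which encodes a matrix-associated growth factor, was at 33.9, 21, 12 and 25.2 CPM in number 1 and 28.1 to 121 CPM (median 70.7) in the others. Both sets overlapped in 2 of the other libraries, and the log2 ratio was −1.68 ± 0.30. Ier2, an early nuclear protein gene, stood at −1.57 ± 0.50, Csrnp1 at −1.64 ± 0.63 and Klf4, a zinc finger factor, at −0.75 ± 0.27. The list did not move as one. Srf, which encodes serum response factor itself, was at 0.00, and Pde4b, a cAMP-degrading enzyme gene, was higher in number 1 (0.72 ± 0.20, at 70.5 to 111 CPM against 18.3 to 79.5 CPM). Klf10 (0.66 ± 0.32) and Ier3 (0.80 ± 0.75) also had estimates above 0.

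Genes that shut early signalling off were mostly low as well, with 16 of 18 estimates below 0 and a median of −0.36. Socs3, an inhibitor of cytokine receptor signalling, was at 1.55, 2.33, 2.55 and 0.619 CPM in number 1 and 3.16 to 45.5 CPM (median 6.65) in the others. The groups did not overlap, and the log2 ratio was −2.29 ± 0.67. Dusp1, a phosphatase that inactivates MAP kinases, was at 62.5 to 75.9 CPM against 69.8 to 292 CPM (median 181), with 1 other library in the number 1 range and a log2 ratio of −1.21 ± 0.25. Zfp36, which promotes decay of short-lived transcripts, stood at −1.54 ± 0.40 with 4 others in range. The MAP kinase antagonists Spry1, Spry2 and Spry4 lay nearer to 0, at −0.22, −0.32 and −0.15.

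**Figure D3:**
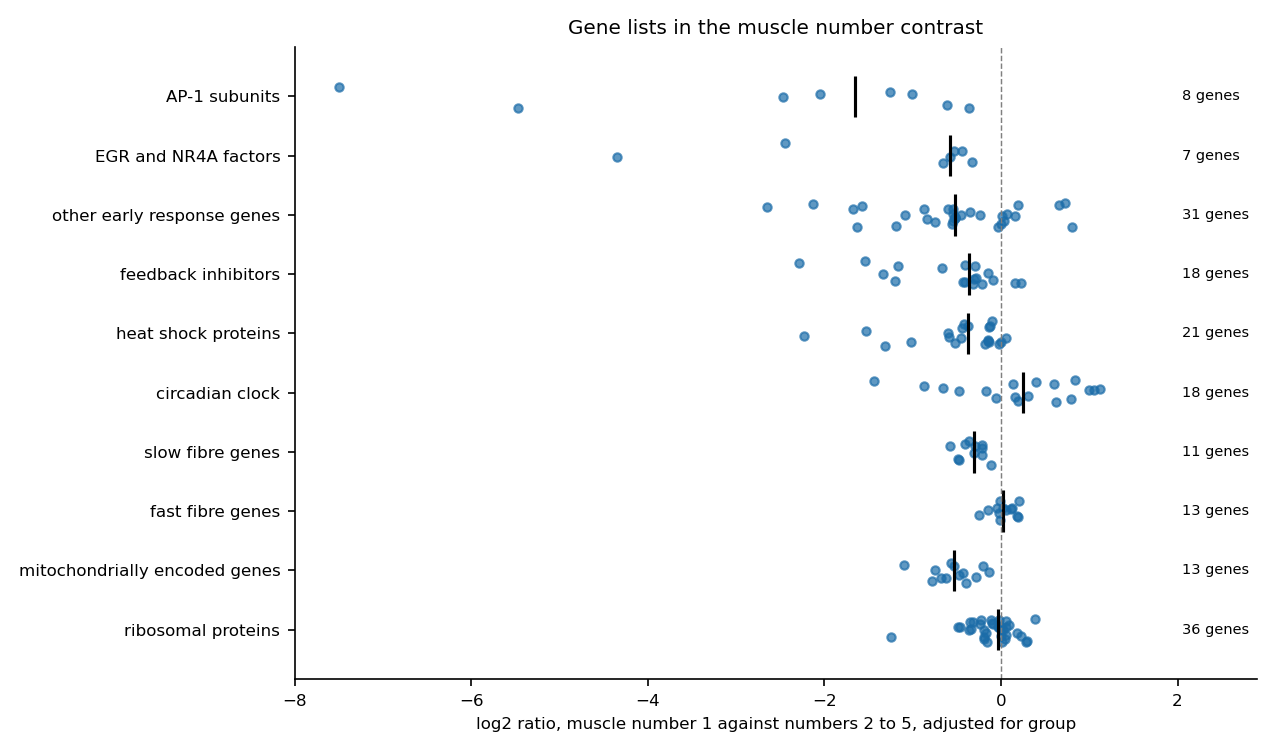
Log2 ratio of muscle number 1 to numbers 2 to 5, adjusted for group, for each tested gene of 10 lists (1 point per gene, black bar the list median, number of genes at right). The AP-1 median is −1.66 and the clock median 0.24; the medians of fast fibre genes and ribosomal proteins, 0.03 and −0.03, lie close to the median of all genes.

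Across all genes, edgeR's quasi-likelihood fit put 7 genes at an adjusted p below 0.05 in the lower direction, 0.0585% of 11959 tested: Fosb, Egr1, Fos, Fkbp5, Btg2, Gm12338 and Ccn1. No gene was called higher (0%), with 363 genes at an unadjusted p below 0.05 in either direction, and 3 called higher by DESeq2 and 49 by limma-voom, which called 48 and 47 lower. Since the contrast was chosen on these values, nothing is read from these counts. The lower count was 3 without Ins2+/- A 1, Ins2+/- B 1 or Ins2+/+ B 1, 1 without Ins2+/+ A 1 and 11 without Ins2+/- B 2. The higher count was 2 without Ins2+/- B 2 and 1 without Ins2+/- B 3, Ins2+/+ B 2 or Ins2+/+ A 5. In the 11 muscles with under 5 CPM of islet transcripts, 27 genes were called lower (0.214%) and 5 higher (0.0397%), and Fos stood at −5.87 ± 0.56, Egr1 at −4.67 ± 0.54 and Btg2 at −2.91 ± 0.36. Without the 3 muscles taken to stand farthest apart, chosen after seeing the data (Ins2+/- A 3, Ins2+/- B 2 and Ins2+/- B 4), the counts were 18 (0.143%) and 3 (0.0238%). Junb (−2.24 ± 0.31 and −2.10 ± 0.30), Dusp1 (−1.24 ± 0.22 and −1.22 ± 0.23), Otud1, Zfp36 and Tnfrsf12a were called lower in both of these smaller sets. Dbp and Mylk4 were called higher in both. Both sets kept the same 4 number 1 muscles and left out Ins2+/- B 2. A call in both is therefore not a separate result, and nothing is read from it.

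Counted within groups, number 1 was the lowest of its 5 libraries in every group for 17 genes (0.142% of those tested) and the highest for 32 (0.268%). If order within groups were random, 1 gene in 625, a fraction of 0.0016, would have number 1 lowest in every group. The same fraction holds for highest. The 17 genes lie near that share, so nothing is read from their count, and neither count was tested. The 17 included Egr1, Ccn1, Dusp1, Socs3, Thbs1, Tnfrsf12a, Otud1, Fkbp5, Zbtb16 and Hspa1b, and also Abra, which encodes an actin-binding activator of serum response factor signalling in muscle. Fos, Btg2 and Jun were the lowest of the group in 3 of 4 groups, the exception being Ins2+/- B, where number 2 was the lowest for each. The 32 included the clock genes Dbp, Tef, Per3 and Cry2.

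Stress and glucocorticoid genes were lower for some members and not for others. Fkbp5, a chaperone-associated gene that glucocorticoid receptor induces, was at 19.1, 16.2, 11.5 and 14.3 CPM in number 1 and 27.5 to 74.5 CPM (median 40.7) in the others. No library overlapped, and the log2 ratio was −1.55 ± 0.27. Zbtb16, another glucocorticoid-induced gene, was at 48.4 to 60.3 CPM against 53.8 to 123 CPM, a log2 ratio of −0.78 ± 0.18. By contrast Tsc22d3 (0.19 ± 0.15) and Klf9 (0.01 ± 0.15), which the same receptor is known to induce, lay close to 0, as 5 of the 15 genes of that list had estimates above 0. The metal-binding Mt1 and Mt2 stood at −1.43 ± 0.61 and −1.60 ± 0.70. Of 21 heat shock genes 20 had estimates below 0, with a median of −0.38. Hspa1b, an inducible HSP70 gene, was at 12.2, 5.39, 3.40 and 6.35 CPM in number 1 and 9.14 to 205 CPM (median 22.4) in the others, with 3 others in range and a log2 ratio of −2.23 ± 0.65. Hspa1b and Hspa1a are near-identical, so the division of reads between them is uncertain.

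Of 18 muscle stretch and atrophy genes tested, 12 had estimates below 0 and 6 above, up to 0.70, with a median of −0.24 and 0 called. Otud1, a deubiquitinase gene, was at 15.5, 26.9, 17.3 and 25.7 CPM in number 1 and 29.2 to 454 CPM (median 91.1) in the others, without overlap, and its log2 ratio was −2.42 ± 0.54. Ankrd1, a stretch-responsive titin partner, stood at −1.76 ± 0.51 and Xirp1, an actin-binding repair protein gene, at −1.34 ± 0.40, each with 5 others in the number 1 range. Tnfrsf12a, the receptor for the cytokine TWEAK, was at 5.52 to 15.5 CPM against 13.6 to 83.8 CPM (−1.54 ± 0.34), and Thbs1, thrombospondin 1, at 10.9 to 28.4 CPM against 25.8 to 118 CPM (−1.34 ± 0.29). The atrophy-linked ubiquitin ligase genes Fbxo32 (0.06) and Trim63 (−0.29) lay nearer to 0.

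Circadian clock genes stood on both sides of 0. In the clock, the CLOCK and ARNTL proteins drive Per, Cry, Dbp and Nr1d genes, and PER and CRY proteins repress that drive, so that Arntl and Dbp are known to peak at opposite times of day. Dbp, a PAR-type transcription factor, was at 111, 98.0, 106 and 99.2 CPM in number 1 and 18.2 to 84.7 CPM (median 47.4) in the others, without overlap and with a log2 ratio of 1.06 ± 0.23. Its relative Tef was at 341, 323, 378 and 356 CPM against 78.5 to 295 CPM (0.62 ± 0.19), and Per3 at 28.8, 30.0, 27.0 and 32.8 CPM against 9.35 to 25.7 CPM (0.80 ± 0.25). In all 3 every number 1 muscle was above every other muscle, which held for 9 genes of all tested (0.0753%) in that direction. Per2 (1.00 ± 0.44), Ciart (1.12 ± 0.59), Hlf (0.84 ± 0.36) and Cry2 (0.60 ± 0.26) had estimates above 0 but overlapped. In the other direction Arntl was at 5.86, 9.17, 9.20 and 7.59 CPM against 9.01 to 46.6 CPM (median 18.8), a log2 ratio of −1.44 ± 0.35 with 1 other library in range. Clock stood at −0.65 ± 0.22, Nfil3, a repressor of D-box genes, at −0.87 ± 0.27, and Nr1d1, a repressor of Arntl, at −0.47 ± 0.22. The list thus had 12 estimates above 0 and 6 below among 18 tested.

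The remaining genes that stood highest in number 1 were chosen after their values were seen. Mylk4, a myosin light chain kinase family member, was at 1505 to 2217 CPM against 473 to 1418 CPM, without overlap (1.05 ± 0.22). Pik3ip1, an inhibitor of phosphoinositide 3-kinase, was at 40.5 to 47.9 CPM against 15.9 to 34.3 CPM, also without overlap (0.80 ± 0.20). Ky, which encodes a muscle protein needed for normal posture in mice, stood at 0.82 ± 0.20. Scd1, the desaturase that makes monounsaturated fatty acids, had a log2 ratio of 0.89 ± 0.26 but ran from 249 to 1482 CPM within number 1, with both diet B libraries above both diet A libraries.

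**Figure D4:**
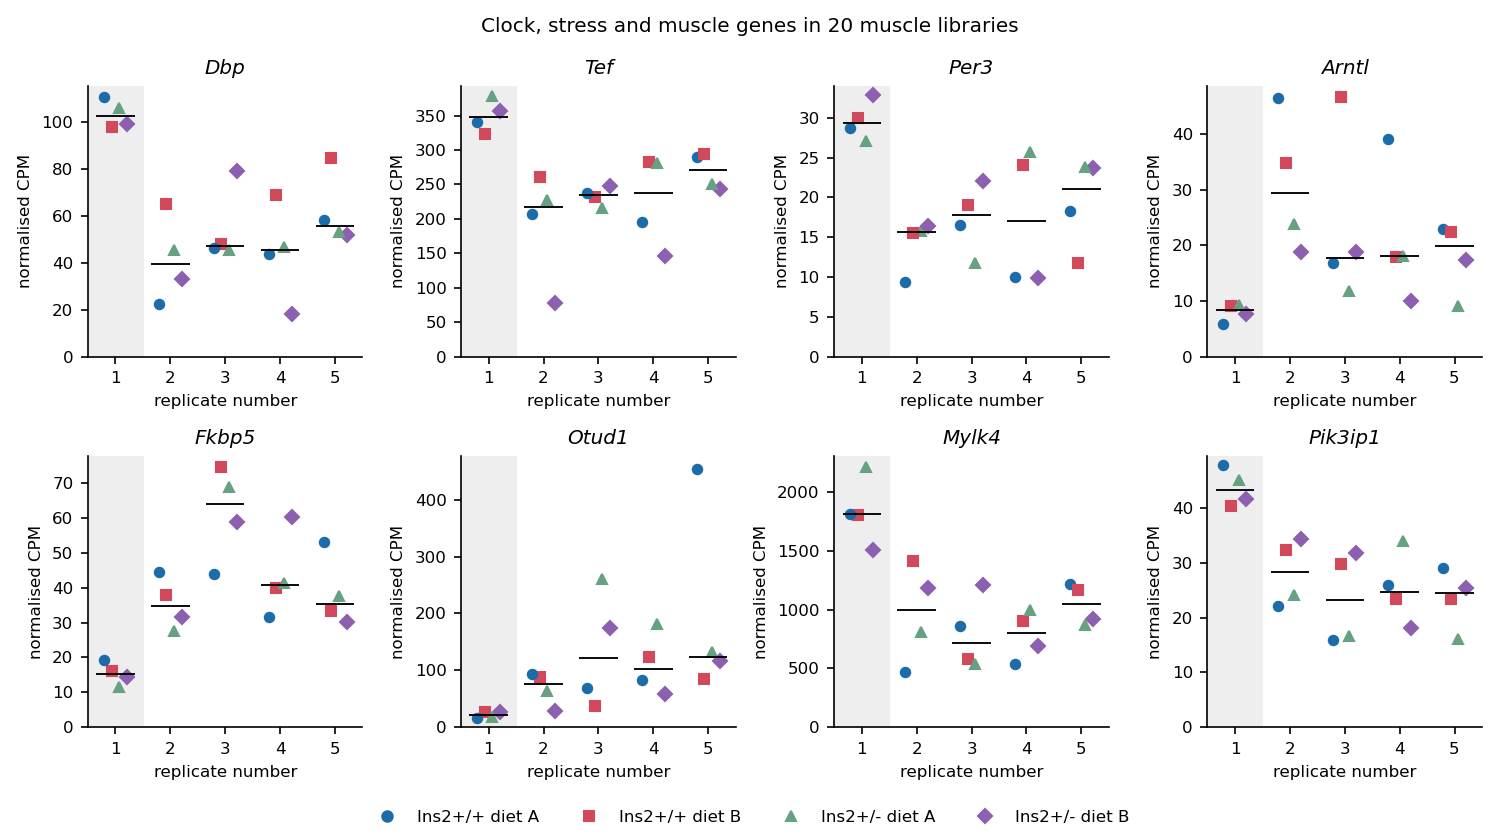
Normalised CPM of 8 clock, stress and muscle genes in the 20 muscle libraries by replicate number, on linear axes from 0. Each point is 1 library, black lines are medians per number, and the grey band marks number 1. Dbp, Tef, Per3, Mylk4 and Pik3ip1 of number 1 lie above all other muscles, Fkbp5 and Otud1 below all of them, and Arntl overlaps with 1.

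Fast fibre genes and skeletal muscle markers differed little. Their median log2 ratios were 0.03 over 13 genes and −0.04 over 10. All 11 slow fibre genes had estimates below 0 (median −0.30), the lowest in Tnnc1 (−0.58 ± 0.31). Their summed level ran from 3976 to 9158 CPM in number 1 and 4560 to 14414 CPM in the others, so the sets overlapped widely. All 13 mitochondrially encoded genes had estimates below 0 (median −0.54), from −1.10 in mt-Atp8 to −0.14, with the share of counts given above. Of the cell type marker lists, adipocyte markers had 7 of 8 estimates above 0 (median 0.66) with summed levels of 4335 to 5424 CPM in number 1 and 2631 to 7317 CPM in the others, and macrophage markers 9 of 10 (195 to 257 CPM against 134 to 258 CPM). Of 18 genes of the unfolded protein and integrated stress response 15 had estimates below 0 (median −0.27), of 13 hypoxia genes 6, of 22 fasting and FOXO targets 12, of 24 insulin signalling genes 10, of 26 nuclear oxidative phosphorylation genes 18 and of 36 ribosomal protein genes 23. All 10 hepatocyte markers had estimates below 0 (median −0.68), with summed levels of 236 to 601 CPM in number 1 and 164 to 2350 CPM in the others. Of 7 nerve and Schwann cell markers 6 had estimates above 0, and of 5 erythroid genes 4 had estimates below 0. Endothelial, smooth muscle, matrix and satellite cell lists had medians between −0.07 and 0.08. In bulk tissue, fewer cells of a type and less RNA per cell cannot be told apart. All 9 islet and all 12 acinar genes had estimates below 0. Their summed levels were 1.31 to 6.54 CPM and 0.929 to 3.10 CPM in number 1, and 2.46 to 23413 CPM and 1.17 to 30189 CPM in the others. In the 11 muscles with under 5 CPM of islet transcripts, the log2 ratios of Fos, Egr1 and Btg2 were near those in all 20. The muscles left out there included Ins2+/- B 2 and Ins2+/- A 2, which had the lowest Fos levels among numbers 2 to 5. With the islet level as a covariate in all 20, 13 genes were called lower, 6 of them among the 7 named above, and 3 higher.

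The liver gave a separate look at replicate number, in libraries the choice of number 1 did not use. Number 1 livers exist in 3 groups, Ins2+/+ A, Ins2+/- A and Ins2+/- B, against 16 livers numbered 2 to 5. Fos was at 0.422, 1.58 and 1.13 CPM in the number 1 livers, in that order, and 0.629 to 147 CPM (median 2.15) in the others. The number 1 livers lay at the low end of a wide and overlapping range. The log2 ratio of −1.32 ± 1.38 did not pass (edgeR's quasi-likelihood test; adjusted p = 0.674, over 11777 genes). Egr1 was at 5.06, 68.8 and 4.53 CPM against 4.4 to 357 CPM (median 23.1) and did not pass (−0.11 ± 0.95, adjusted p = 0.976). Its sign depended on the setting. Jun (−1.13 ± 0.62, adjusted p = 0.342) and Btg2 (−1.11 ± 0.56, adjusted p = 0.303) did not pass either. Jun was at 8.65, 8.10 and 12.3 CPM against 5.83 to 405 CPM, and Btg2 at 8.44, 7.11 and 10.7 CPM against 4.11 to 191 CPM.

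Other genes did pass in liver. The test called 99 genes lower (0.841%) and 137 higher (1.16%) in number 1, and 99 (0.841%) and 130 (1.1%) genes lay without overlap in those directions. Gsta3, a glutathione transferase gene, rose by 0.72 ± 0.09 (adjusted p = 0.000657), from 580 to 920 CPM in the others to 1070 to 1366 CPM in number 1, higher in 3 of 3 libraries. Ces1d, a lipid-hydrolysing carboxylesterase gene, rose by 0.96 ± 0.13 (adjusted p = 0.00127), and Mcrip2 by 1.13 ± 0.14 (adjusted p = 0.000698). Cldn1, a tight junction gene, fell by 1.04 ± 0.17 (adjusted p = 0.00368), at 20.7 to 46.9 CPM against 56.8 to 89.9 CPM. Fga, the fibrinogen alpha chain, fell by 0.54 ± 0.09 (adjusted p = 0.00522), and Sgk1, a glucocorticoid-induced kinase gene, by 0.96 ± 0.19 (adjusted p = 0.014). None of the 7 tested AP-1, 4 EGR and NR4A, 29 other early or 17 feedback genes was called in liver. Islet transcripts moved with number in liver too, in the opposite direction to muscle: all 3 number 1 livers held them (12.2, 56.4 and 1692 CPM), the 16 others had 0 to 128 CPM with a median of 0.296, and 7 of 8 tested islet genes were called higher. With the islet level as a covariate 2 genes were called lower and 1 higher, in a fit where that covariate and number overlap; the part of islet transcripts in the liver counts cannot be told apart from number. The lower and higher counts were 49 and 68 without Ins2+/- B 1, 19 and 47 without Ins2+/- A 1, 21 and 49 without Ins2+/+ A 1, and 155 and 216 without Ins2+/- A 2. The lower count alone was 62 without Ins2+/- B 4 and 65 without Ins2+/+ A 4.

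Clock genes in liver lay on the same side as in muscle for 13 of the 16 genes compared in both tissues, the exceptions being Cry1, Rora and Per1. The share of all genes on the same side was not worked out. Clock genes also drive one another, so these signs are not separate results. Clock fell in liver (20.9 to 23.0 CPM against 27.1 to 58.8 CPM, −0.83 ± 0.19, adjusted p = 0.0267, lower in 3 of 3). Dbp, Tef, Per3 and Arntl did not pass in liver: Dbp was at 1.14 ± 0.33 (adjusted p = 0.0721; 153 to 190 CPM against 22.9 to 168 CPM), Tef at 0.64 ± 0.21 (adjusted p = 0.102; 288 to 297 CPM against 97.9 to 256 CPM), Per3 at 0.79 ± 0.30 (adjusted p = 0.157) and Arntl at −1.61 ± 0.73 (adjusted p = 0.248). Of 27 genes that were the highest of their group in all 4 muscle groups and were tested in both tissues, 5 were also the highest in all 3 liver groups (18.5% of the muscle and 1.15% of the liver genes): Dbp, Tef, Per3, Paqr7, a membrane progestin receptor gene, and Rhoq, a small GTPase gene linked to glucose transport. Of 15 genes lowest in all 4 muscle groups, 0 were lowest in all 3 liver groups. In the livers, number 1 was the highest of its group in every group for 4.06% of genes and the lowest for 2.89%.

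**Figure D5:**
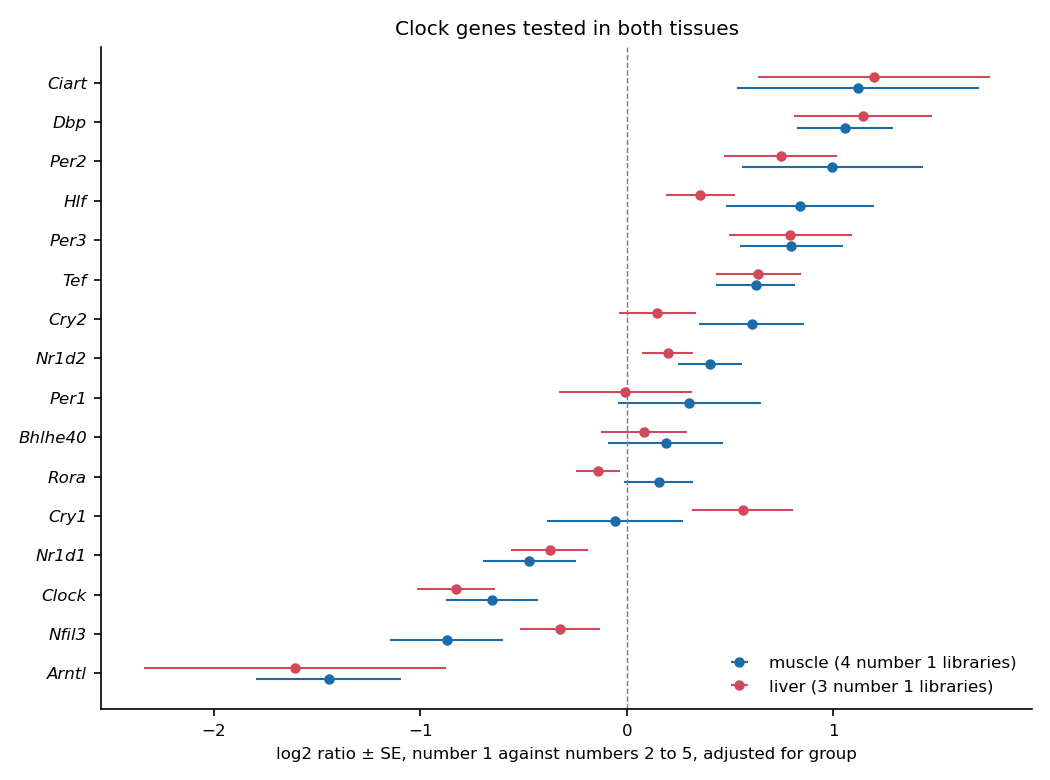
Log2 ratio ± SE of number 1 to numbers 2 to 5, adjusted for group, for 16 clock genes tested in both tissues, ordered by the muscle value. Blue points are muscle (4 number 1 libraries) and red points liver (3 number 1 libraries); 13 genes lie on the same side of 0 in both, with Arntl lowest and Ciart highest in each.

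Whether the number 1 difference varied between the study's groups was tested by interaction terms. For Fos and Egr1 these terms use the values on which number 1 was chosen. Nothing is therefore read from small differences between groups in those genes. With diet, edgeR called 0 of 11959 genes (0%), with 48 at an unadjusted p below 0.05 and 3 called by DESeq2. With genotype it called 0 (0%), with 16 at an unadjusted p below 0.05 and 2 called by DESeq2. The lowest adjusted p was 1 for both. Without Ins2+/+ B 1 or Ins2+/+ A 1 the count with diet was 1, and without Ins2+/- A 1 or Ins2+/+ A 1 that with genotype was 1. For Fos the difference between diets (diet B minus diet A) in the number 1 log2 ratio was 0.13 ± 1.28 and that between genotypes 2.02 ± 1.32 (Ins2+/- minus Ins2+/+). For Egr1 they were −0.21 ± 1.00 and 1.91 ± 1.00, for Btg2 0.81 ± 0.79 and 0.43 ± 0.79, and for Jun 0.64 ± 0.66 and 0.65 ± 0.66. The genes of lowest p with diet were Rpl3, Tnfrsf12a and Gm21985, and with genotype Gm28048, Cyyr1 and Tnfrsf12a, none of which passed. Each group held 1 number 1 library, so 0 calls do not show that the difference was alike in all groups. Both counts of unadjusted p were also far under a share of 0.05 of the genes, which tests with no effect would give. The 0 calls therefore carry little information.

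The numbers 2 to 5 were also compared among themselves, in the 16 muscles outside number 1. Of 11928 genes 0 were called (0%), with 305 at an unadjusted p below 0.05, 1 called by DESeq2 and a lowest adjusted p of 0.169. With no filter on low counts the count was 195. The count was 26 without Ins2+/- B 4 and 1 without Ins2+/- A 4. Fos had medians of 94.3, 181.8, 132 and 215 CPM in numbers 2, 3, 4 and 5, and Egr1 64.8, 85.0, 105 and 102 CPM, against number 1 values of at most 5.5 and 5.38 CPM. The differences among these 4 numbers did not pass for Fos, Egr1, Jun or Btg2 (adjusted p = 1 for each). Number 2 had the lowest median of the 4 for Fos, Fosb, Jun, Junb, Egr1 and Btg2, with both low libraries in Ins2+/-, A 2 and B 2.

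Genotype and diet themselves gave few calls in muscle. For genotype averaged over diets edgeR called 0 of 11959 genes (0%), with 387 at an unadjusted p below 0.05 and 3 called by DESeq2, and for diet 1 gene (0.00836%), Scd1, which was higher on diet B (2.24 ± 0.28, adjusted p = 0.000309). The early genes did not pass for either factor: Fos was at −1.36 ± 0.77 for Ins2+/- against Ins2+/+ and 0.43 ± 0.76 for diet B against diet A (adjusted p = 0.999 for both). With number 1 as a term in the fit, or without the number 1 libraries, edgeR still called 0 genes for genotype and 1 for diet.

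Within the 16 muscles numbered 2 to 5 the early genes varied together, in libraries where number 1 plays no part. After centring log2 levels (CPM plus 1) on each group, Fos correlated with Btg2 (Pearson's r = 0.934, permutation p = 6e-05; Spearman's rho = 0.938, p = 2e-05), with Egr1 (r = 0.896, permutation p = 5e-05; rho = 0.915, p = 0.00042), with Fosb (r = 0.925, permutation p = 0.0021; rho = 0.856, p = 0.0036) and with Jun (r = 0.767, permutation p = 0.00064; rho = 0.856, p = 0.0014). The adjusted p over 9 relations was 0.00027, 0.00027, 0.0047 and 0.0019. The 9 relations were chosen after the values were seen, and permutations (100000) were made within groups. Without the 2 muscles farthest from the median of Fos, Ins2+/- B 2 and Ins2+/- A 2, r was 0.906, 0.867, 0.795 and 0.751. Ccn1 (r = 0.575, permutation p = 0.078; rho = 0.768, p = 0.0091; adjusted p = 0.12; r = 0.715 without the 2) and Fkbp5 (r = 0.518, permutation p = 0.054; rho = 0.471, p = 0.11; adjusted p = 0.096; r = 0.366 without the 2) did not pass. No relation of Fos to the clock genes Dbp and Arntl passed, which in 16 libraries does not show that none exists. With Dbp, r was 0.243 (permutation p = 0.63, rho = 0.329, p = 0.33, adjusted p = 0.63, r = 0.217 without the 2). With Arntl, r was −0.195 (permutation p = 0.44, rho = −0.124, p = 0.64, adjusted p = 0.57, r = 0.0476 without the 2). Dbp and Arntl were related at r = −0.136 (permutation p = 0.62; rho = −0.368, p = 0.15; adjusted p = 0.63), and at r = −0.614 without Ins2+/- B 4 and Ins2+/- B 3.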

How the data were processed

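RNA from liver and triceps surae was sequenced from TruSeq RNA v2 libraries, a kit that does not mark strand, per the labels' protocols. The deposited values are estimated counts per gene (expected counts); kallisto 0.42.3, DESeq2 and build GRCm38 are named, with no role given, per the submitters' processing notes. Counts were rounded to whole numbers, and 46005 of 46517 gene IDs (98.9%) matched the annotation used for names. Groups came from the sample titles and characteristics. Each tissue was fitted with edgeR 4.0.16 (TMM scaling, low counts filtered by group, quasi-likelihood test, group and number 1 as terms) in R 4.3.3, with Benjamini-Hochberg adjustment over all genes tested and a threshold of 0.05. The SE is the size of the log2 ratio divided by the square root of F. DESeq2 1.42.0 and limma 3.58.1 were alternatives, with other scalings, filters and library sets. The fits were tested on simulated data. Permutation tests were run in Python 3.11.15, with ranks from SciPy 1.17.1.

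The number 1 libraries, gene lists and tests were chosen with earlier results of these data known. Genes in the text are list members, genes called, genes without overlap, the 3 of lowest p in each other test, and others chosen after their values were seen. The labels do not say that libraries came from separate mice, so p-values measure the spread between libraries. A count of 3 corresponds to 0.253 to 0.556 CPM in the number 1 muscles and 0.219 to 2.83 CPM in the others, which covers counting error only. Reads of pseudogenes such as Gm12338 may belong to near-identical genes. Promoter sequences are RefSeq's, build GRCm38.p6. The replicate number was not used as a pairing in the fits described. The results of 1 gene are left out and not reported here.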

Additional observations from a re-analysis of the deposited data

Results flagged for a closer look

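Of 82 groups of 4 or 5 muscle values examined, 5 held a library far from the others of its group by Dixon's criterion, which chance alone meets in about 1 in 20 groups. Among the 4 number 1 muscles, Ttn, the giant sarcomere spring, was at 2661 CPM in Ins2+/- A 1, and Dsp, a desmosome gene near 0 counts, was at 0.146 CPM in Ins2+/+ B 1. Jun was at 499.8 CPM in Ins2+/+ A 5, far above the rest of its group. The share of counts on mitochondrially encoded genes was 26.8% in Ins2+/- A 3 and 49.71% in Ins2+/- B 2.

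Of 37 genes examined in both tissues, 6 had number 1 muscles and number 1 livers on opposite sides of their groups; these differences between tissues were not tested. Tnfrsf12a, low in number 1 muscle, had a liver log2 ratio of 0.38, and Hspa1b one of 1.05. Pde4b and Pfkfb3, both higher in number 1 muscle, were at −0.76 and −0.45 in liver. The islet gene Iapp and the acinar gene Cpb1, low in number 1 muscle, were at 6.17 and 1.92 in liver.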

How the results depend on the processing

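In muscle, the lower and higher counts of 7 and 0 were 12 and 2 with no filter, 48 and 3 with DESeq2, 47 and 49 with limma-voom, 13 and 3 with islet transcripts as a covariate, 27 and 5 without libraries with islet transcripts, and 18 and 3 without the 3 muscles farthest apart. The lower count was 3 with robust estimation, 0 with diet A only, 1 with diet B only and 0 with Ins2+/- only, and the higher count was 1 at an adjusted p below 0.1. Leaving out 1 library gave 1 to 11 and 0 to 2. In liver, 99 and 137 became 280 and 346 with DESeq2, 284 and 368 at an adjusted p below 0.1, 28 and 61 with diet A only, 41 and 70 with diet B only, 2 and 9 with Ins2+/- only, 1 and 1 with Ins2+/+ only, and 2 and 1 with the islet covariate. The lower count was 41 with limma-voom and the higher 297 with no filter, and leaving out 1 library gave 19 to 155 and 47 to 216. No number 1 liver was left without islet transcripts, so that set gave no value. The 0 calls for number 1 by diet and by genotype were 3 and 2 with DESeq2 and 0 to 1 with a library left out. Numbers 2 to 5 gave 195 with no filter, 1 with DESeq2 and 0 to 26 with a library left out. Genotype gave 3 and diet 4 with DESeq2, and diet 2 with no filter. The total count difference ran from 0.766 to 1.08 with a library left out. Robust estimation, the islet covariate and the sets without 3 muscles or the 2 deepest livers were chosen after seeing the data.

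Some signs turned. Liver Fos was 0.67 and Egr1 1.24 with the islet covariate. Liver Egr1 was also 0.0074 with DESeq2, 0.90 with diet A only, 0.42 with Ins2+/- only, and −2.90 to 0.91 with a library left out. Liver Zbtb16 was 0.67 with Ins2+/+ only. The diet difference in the number 1 ratio ran from −0.32 to 0.66 for Fos and from −1.04 to 0.84 for Egr1 with a library left out. The cause was not tested. Deviations from the group means of same-numbered muscles correlated at 0.178 to 0.255 for number 1 and at −0.0994 to 0.162 for the other numbers. Every pair was over 0.1 for number 1 and for no other number, so the numbers as a whole did not meet the criterion for paired libraries. With the replicate number as a block, the interactions and genotype had 0 calls and diet 1. Muscle totals as low as 1060469 counts limit what low genes can show.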
